A study of Homo sapiens with 4 samples.

Results

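The mitochondrial genome encodes part of respiratory complex I, and 6 of those subunit genes lie in the heavy-strand transcription unit: MT-ND1, MT-ND2, MT-ND3, MT-ND4L, MT-ND4 and MT-ND5. They were chosen by gene name from a table of 59385 features, and all 6 passed the filter on low counts that left 9295 features to test. The libraries were made from C4-2, a subline of the prostate cancer line LNCaP that grows without androgen. The treated cells had received the ketone body β-hydroxybutyrate (BHB), 50 mM in RPMI medium, for 3 days, and control cells RPMI medium alone, and both groups came from stocks kept with fetal bovine serum. Each group held 2 libraries, and nothing in the labels tells whether they were grown separately, so the replicate error behind each p-value may be technical. A single cell line was used, and no knockout or knockdown was part of the design. In bulk RNA, fewer cells and less RNA per cell cannot be told apart.

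Complex I, the NADH:ubiquinone oxidoreductase, takes electrons from NADH, passes them to ubiquinone and pumps protons across the inner mitochondrial membrane. The subunits encoded in mitochondrial DNA form the core of its membrane arm. Their heavy-strand genes are copied together with the other heavy-strand genes into one long RNA, which is cut at the transfer RNAs that lie between most genes, while MT-ND4L and MT-ND4 stay on one messenger. BHB is oxidised in mitochondria by BDH1, a step that makes NADH.

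The gene ends are shown because they set which reads a gene-based count can assign. Positions are those of GENCODE release 29 on GRCh38, from which the sequences were read, and the exon lengths in the deposited table equal those of that release for all 6 genes. The genes have a single exon each and lie on the plus strand of the annotation. MT-ND1 spans chrM:3307-4262, MT-ND2 chrM:4470-5511, MT-ND3 chrM:10059-10404, MT-ND4L chrM:10470-10766, MT-ND4 chrM:10760-12137 and MT-ND5 chrM:12337-14148. The last 30 bases of each follow, with the stop codon, or what the genome holds of it, in capitals:
MT-ND1: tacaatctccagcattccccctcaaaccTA
MT-ND2: ctatctccccttttatactaataatcttaT
MT-ND3: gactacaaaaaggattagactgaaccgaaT
MT-ND4L: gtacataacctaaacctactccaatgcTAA
MT-ND4: accccgacatcattaccgggttttcctctT
MT-ND5: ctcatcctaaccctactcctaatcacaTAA
In 4 of the 6, the gene ends within a codon, and the stop is known to be completed by the poly(A) tail added to the cut RNA. MT-ND4L and MT-ND4 share 7 bases, in capitals in the stretch chrM:10735-10791 on the plus strand:
MT-ND4L and MT-ND4: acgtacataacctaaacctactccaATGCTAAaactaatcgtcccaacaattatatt
The capitals hold the initiation codon of MT-ND4 and the stop codon of MT-ND4L, so a read across them lies in both genes, and how such reads were counted is not given in the sources used here. MT-ND5 ends directly beside MT-ND6, which lies on the other strand at chrM:14149-14673 and ends in this sequence, read on its own strand with its stop codon in capitals:
MT-ND6: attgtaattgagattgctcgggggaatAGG

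Libraries held 2233711 to 2565080 counts, and 16169 to 18218 features had at least 1 count. The control libraries stood apart from each other: their TMM scaling factors were 1.10 for replicate 1 and 0.886 for replicate 2, against 1.01 for each BHB library. The luminal gene KRT8 had 9221 to 12028 counts, and the prostate gene KLK3 had 154 and 191 counts with BHB, against 448 and 97 in controls. All 15 markers of basal, fibroblast, endothelial and leukocyte cells had 0 counts in every library. The kit marks the strand of the RNA, but the strand setting used in counting is not given. Heavy-strand messengers are known to be far more abundant than that of MT-ND6, yet here MT-ND6 had 9499 and 13037.5 CPM (counts scaled to the library size) per kilobase (kb) with BHB, against 10401 and 6814 in controls. This was 21.9 and 22.1 times the median of the 6 genes in the BHB libraries, and 47.5 and 19.5 times in control replicates 1 and 2. All values below are those listed under a gene name. They may come from RNA of either strand, and the part of strand in the results was not tested.

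All 6 genes stood higher with BHB, with log2 fold changes of BHB over control from 0.53 to 1.14 and a median of 0.97, against -0.03 over all tested features. None passed the edgeR quasi-likelihood test over the whole table (0 of 6 at an adjusted p under 0.05, where the share of all tested features called higher was 0%), and DESeq2 and limma-voom gave 0 of 6 as well. At an unadjusted p under 0.05, 5 of the 6 were higher in edgeR, against 1.19% of tested features. In the same 5 genes both BHB libraries lay above both controls, an order that 15.1% of tested features showed. The exception by both measures was MT-ND1. When each library was scaled to its other mitochondrial counts, MT-ND1 turned to -0.04 (SE 0.50). The other 5 kept a positive sign, from 0.09 (SE 0.50) for MT-ND2 to 0.58 (SE 0.50) for MT-ND3, and none passed. The 6 genes are neighbours copied into one long heavy-strand RNA, so they were not taken as independent of each other. Whether the counts listed under them come from that RNA was not tested.

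**Figure D1:**
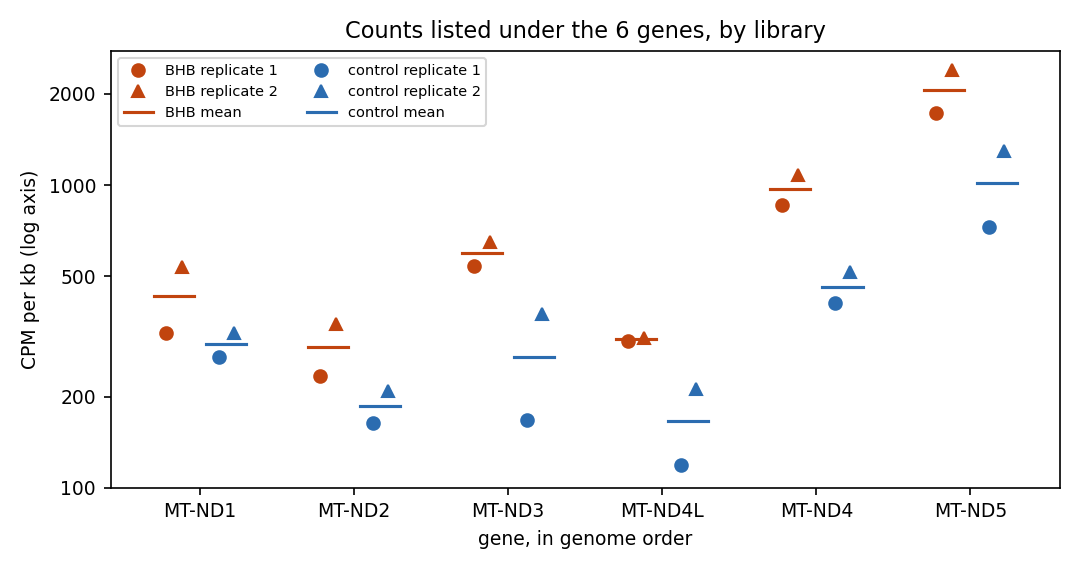
CPM per kb of gene (log axis) listed under each of the 6 genes, in genome order, with 2 BHB libraries left of 2 control libraries and a line at each group mean. Both BHB libraries lie above both controls in every gene but MT-ND1, and MT-ND5 has the highest level in each library.

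MT-ND1, MT-ND3 and MT-ND4L lie near the joint of the membrane arm with the peripheral arm. MT-ND1, which helps to form the ubiquinone-binding site, had 703 and 1137 counts with BHB, against 716 and 610 in controls. Its BHB replicate 1, at 309.9 CPM, lay just under control replicate 2, at 310.9 CPM, so the groups overlapped. The log2 fold change was 0.53 (SE 0.29, 95% interval -0.14 to 1.20, edgeR adjusted p = 1.0). MT-ND3, whose loop near the ubiquinone site takes part in the switch between active and deactive enzyme, had 425 and 498 counts with BHB, against 161 and 254 in controls. Control replicate 1 was the low library here, at 0.45 of the CPM of control replicate 2, and the groups did not overlap. MT-ND3 had the largest log2 fold change of the 6 and also the widest error, at 1.14 (SE 0.38, 95% interval 0.28 to 2.01, edgeR adjusted p = 1.0). MT-ND4L, a small subunit in the proton path of the membrane arm, had 206 and 207 counts with BHB, against 98 and 124 in controls. The BHB libraries were close to each other, at 90.8 and 93.1 CPM, and both were above the controls at 35.3 and 63.2 CPM. Its log2 fold change was 0.91 (SE 0.33, 95% interval 0.16 to 1.65, edgeR adjusted p = 1.0).

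MT-ND2, MT-ND4 and MT-ND5 encode the antiporter-like subunits, large membrane proteins that each hold a proton channel. MT-ND2 had 554 and 805 counts with BHB, against 472 and 427 in controls. The lower BHB library was 1.12 times the higher control in CPM, the narrowest gap of the 5 genes without overlap. Its log2 fold change was 0.65 (SE 0.28, 95% interval 0.0046 to 1.29, edgeR adjusted p = 1.0). MT-ND4 had 2695 and 3316 counts with BHB, against 1560 and 1391 in controls, and the lower BHB library was 1.68 times the higher control in CPM, the widest gap of the 6. MT-ND4 averaged 1340 ± 215 CPM with BHB and 635.6 ± 104 CPM in controls (SD, n = 2 each), a log2 fold change of 1.08 (SE 0.26, 95% interval 0.50 to 1.65, edgeR adjusted p = 1.0). By unadjusted p, MT-ND4 was number 5 of the 9295 tested features. MT-ND5, the subunit at the far tip of the membrane arm, had 7134 and 9626 counts with BHB, against 3641 and 4621 in controls. It averaged 3737 ± 838 CPM with BHB and 1834 ± 737 CPM in controls (SD, n = 2 each), and the lower BHB library was 1.34 times the higher control. The log2 fold change was 1.03 (SE 0.33, 95% interval 0.29 to 1.77, edgeR adjusted p = 1.0).

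**Figure D2:**
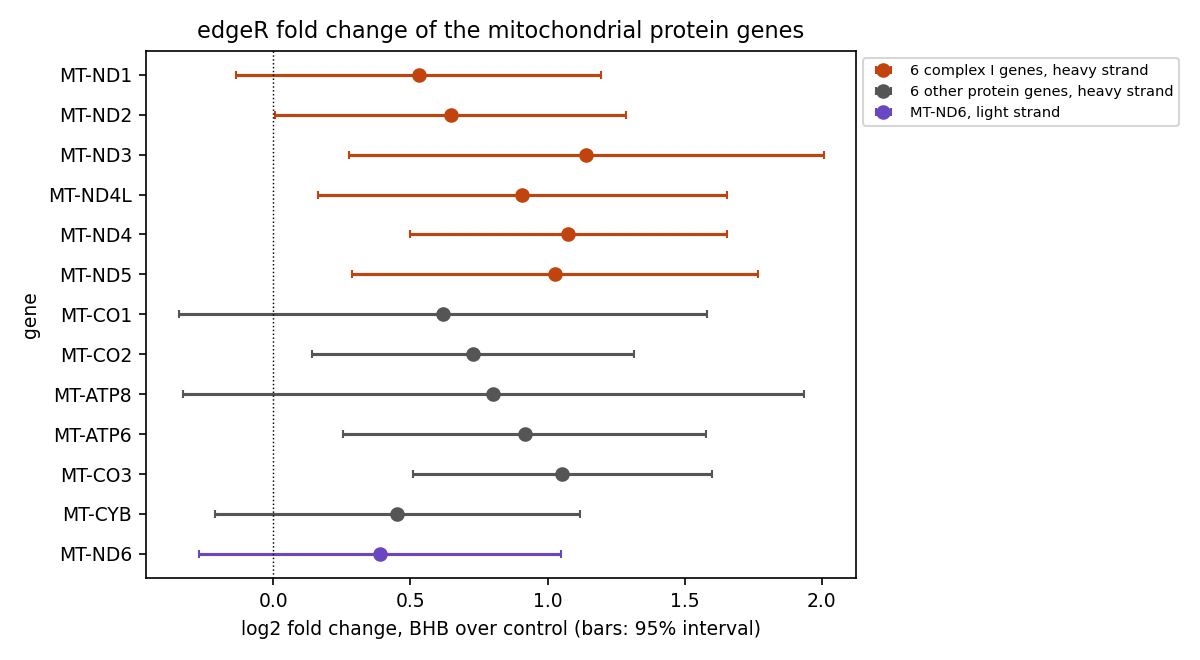
Log2 fold change of BHB over control from edgeR with its 95% interval for the mitochondrial protein genes, with the 6 complex I genes of the heavy strand at the top, 6 other heavy-strand protein genes below and MT-ND6 at the bottom. The points of the 6 genes run from 0.53 (MT-ND1) to 1.14 (MT-ND3), and the interval of MT-ND1 alone among them spans 0.

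These tests rest on the whole table, in which 0 features were called in either direction. Leaving out either control library changed the calls. Without control replicate 1, 5 of the 6 passed the edgeR test as higher, where 5.84% of features did, with MT-ND4L the exception (adjusted p = 0.085). Without control replicate 2, all 6 passed, where 9.43% of features did. Without either BHB library none passed (0% of features). The log2 fold change of MT-ND3 was 0.66 without control replicate 1 and 1.86 without control replicate 2, and that of MT-ND5 was 0.65 and 1.55. MT-ND4 had 0.91 and 1.29, and MT-ND1 had 0.39 and 0.71. With 1 control left, the spread in these fits comes from the BHB libraries alone.

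The 6 genes differed widely in level. Per kb, MT-ND5 was highest in each library, with 1736 and 2390 CPM per kb with BHB, against 724 and 1300 in controls. MT-ND4 came next in each library, with 862 and 1082 CPM per kb with BHB, against 408 and 514.5 in controls. Below them no order held in all libraries: MT-ND3 followed with BHB, at 541.5 and 647 CPM per kb, and in control replicate 2 at 374, but in control replicate 1 MT-ND1 followed, at 269.9 against 168 for MT-ND3. MT-ND2 and MT-ND4L were the lowest pair in the BHB libraries and in control replicate 2. In control replicate 1 MT-ND4L was lowest at 119 CPM per kb, with MT-ND2 at 163 and MT-ND3 at 168. By group means with BHB, the neighbours MT-ND3, at 594.5 ± 74.9 CPM per kb, and MT-ND1, at 430 ± 149, differed by little more than the SD of MT-ND1 (n = 2). MT-ND4L, at 310 ± 5.46, and MT-ND2, at 290.9 ± 80.0, did not differ beyond their spread. MT-ND4L is on the same messenger as MT-ND4, though the counts listed under each may come from RNA of either strand. The CPM per kb of MT-ND4L was 0.35 and 0.29 of that of MT-ND4 with BHB, against 0.29 and 0.41 in controls. These ratios overlapped between the groups.

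As a share of the summed CPM per kb of the 6 genes, MT-ND5 made up 43.4% and 45.0% with BHB, against 39.1% and 44.3% in controls. Of the 6 shares, only those of MT-ND1 and MT-ND2 did not overlap between the groups. The 6 shares make up one whole, so they are not independent, and the part of gene position was not tested. MT-ND1 held 8.10% and 10.1% of the sum with BHB, against 14.6% and 11.1% in controls, and MT-ND2 held 5.85% and 6.54%, against 8.82% and 7.12%. For both, the exact two-sided permutation test gave p = 0.333, the smallest that 2 libraries against 2 allow. A difference in makeup was thus not established. MT-ND3, MT-ND4L, MT-ND4 and MT-ND5 had overlapping shares. The CPM per kb of MT-ND5 was 5.35 and 4.47 times that of MT-ND1 with BHB, against 2.68 and 3.997 times in controls (exact two-sided permutation p = 0.333).

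Summed over the 6 genes, the level was 4004 and 5315 CPM per kb with BHB, against 1852 and 2935 in controls, a ratio of group means of 1.95. The groups did not overlap, and the exact two-sided permutation p was 0.333, the smallest possible here. As plain counts, the 6 genes held 0.516% of all counts in BHB replicate 1 (95% Wilson interval 0.506 to 0.525) and 0.698% in BHB replicate 2 (0.687 to 0.709), against 0.259% (0.253 to 0.265) and 0.332% (0.324 to 0.340) in control replicates 1 and 2. These intervals cover counting error only, and they are far narrower than the gap between replicates of a group.

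Set against the rest of the mitochondrial genome, the difference was smaller. Among the 6 other heavy-strand protein genes (MT-CO1, MT-CO2 and MT-CO3 of cytochrome c oxidase, MT-ATP6 and MT-ATP8 of ATP synthase, and MT-CYB of the cytochrome bc1 complex), log2 fold changes ran from 0.45 to 1.05 with a median of 0.76, none passed the test, and both BHB libraries lay above both controls in 4. MT-ND6 had 0.39 (SE 0.29). The summed CPM per kb of the 6 complex I genes was 1.48 and 1.52 times that of the 6 others with BHB, against 0.869 and 1.98 times in control replicates 1 and 2. Both BHB values lay between the controls (exact two-sided permutation p = 1.0), so a difference of the complex I genes from the other heavy-strand genes was not established. As a share of all mitochondrial counts, the 6 genes held 32.0% and 32.1% with BHB, against 19.9% and 31.5% in controls. By that share MT-ND4 alone of the 6 kept the groups apart, with 7.37% and 6.83% with BHB, against 4.66% and 5.90% in controls. The share of all features with that order was not computed for this measure, so MT-ND4 is not set apart from the other genes by it. MT-ND5 had 19.5% and 19.8% with BHB, against 10.9% and 19.6% in controls.

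**Figure D3:**
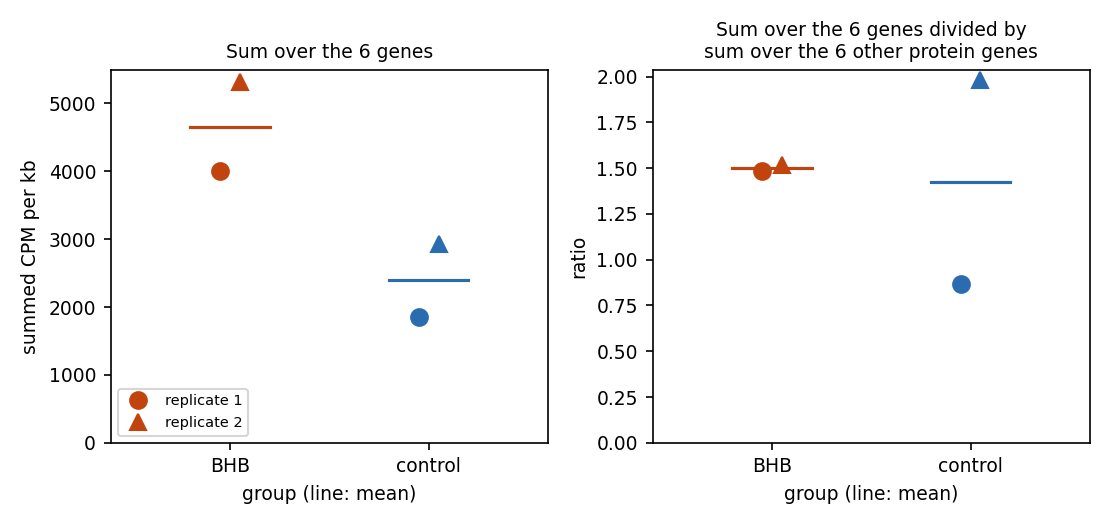
Left, summed CPM per kb of the 6 complex I genes in each library, and right, that sum divided by the same sum over the 6 other heavy-strand protein genes (lines, group means). On the left both BHB libraries lie above both controls, and on the right the BHB libraries, at 1.48 and 1.52, lie between the controls at 0.869 and 1.98.

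The control libraries disagreed in opposite directions for the complex I genes and the other protein genes. In control replicate 2, all 6 complex I genes stood above control replicate 1 in CPM, by 1.20 times for MT-ND1, 1.26 for MT-ND4, 1.28 for MT-ND2, 1.79 for MT-ND4L, 1.79 for MT-ND5 and 2.23 for MT-ND3. With total counts and no scaling factor MT-ND1 turned to 0.967 and MT-ND4 and MT-ND2 came to 1.01 and 1.03, while MT-ND3, MT-ND4L and MT-ND5 stayed at 1.44 to 1.79. The 6 other heavy-strand protein genes were all lower in control replicate 2, at 0.388 times control replicate 1 for MT-CO1 and 0.993 for MT-CO3, and MT-ND6 was at 0.655. Over all tested features, 52.4% were higher in control replicate 2. Between the BHB libraries no such split was seen: replicate 2 was higher in all 6 complex I genes, by 1.03 times for MT-ND4L to 1.65 times for MT-ND1, and in all 6 others.

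**Figure D4:**
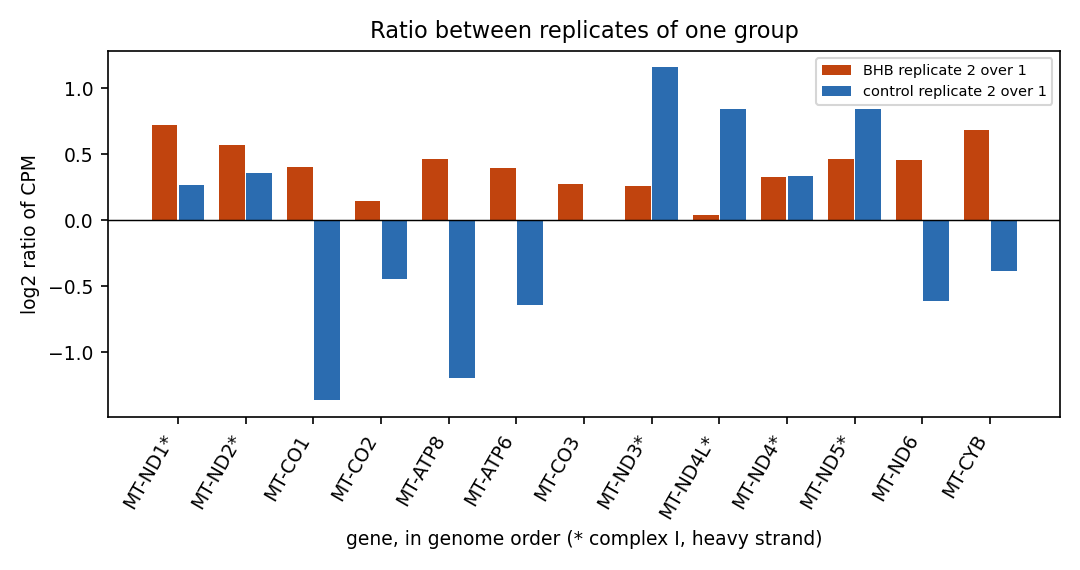
Log2 ratio of CPM between replicates 2 and 1, for BHB and for control libraries, over the mitochondrial protein genes in genome order (asterisk, complex I genes of the heavy strand). The BHB bars are all above 0, while the control bars are above 0 for the 6 complex I genes and below 0 for the others, with MT-CO3 close to 0.

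The nuclear genome holds many copies of mitochondrial genes, and reads can be shared with them. The table lists 189 features named as copies of the 6 genes, of which 172 had 0 counts in all libraries. Summed, the copies averaged 1.25% of the counts of the 6 genes. MTND2P28 (chr1:629640-630683), a copy of MT-ND2, had the most, with 45 and 78 counts with BHB, against 44 and 48 in controls, on average 9.52% of the counts of MT-ND2. It matched MT-ND2 at 98.4% of 1042 aligned bases without a gap, and the longest stretch without a difference was 266 bases. The 60-base window with most differences is shown, with the bases that differ in capitals, at chrM:4899-4958 for MT-ND2 and chr1:630069-630128 for the copy, both on the plus strand:
MT-ND2: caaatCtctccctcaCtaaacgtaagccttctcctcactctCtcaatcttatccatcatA
MTND2P28: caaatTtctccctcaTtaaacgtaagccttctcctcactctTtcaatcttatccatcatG
MTND4P20, the copy of MT-ND4 with the highest count, had 45 and 84 counts with BHB, against 26 and 52 in controls, and matched MT-ND4 at 73.3% of 641 aligned bases. MTND5P11, at 93.0% identity over 1812 bases, had a mean of 5.25 counts. The copies with the most counts for the other 3 genes were MTND1P23, with a mean of 0.75 counts, MTND3P25, with 1, and MTND4LP32, with 0.75. MTND1P23 matched MT-ND1 at 99.1% of 352 aligned bases without a gap, a higher identity than that of MTND2P28. How reads with several matches were handled is not given. By the counts on its copies MT-ND2 is the least certain in this respect, and by identity part of MT-ND1 is uncertain as well.

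Complex I also needs many nuclear-encoded subunits, and counts listed under these genes were low. Of 37 nuclear subunit genes, 23 were tested and none passed, with 7 higher and 16 lower with BHB and a median log2 fold change of -0.39. Both BHB libraries lay below both controls in 7 of the 23, where 14.0% of all tested features showed that order, and above them in 2. The summed count of the 37 was 1250 and 1204 with BHB, against 2050 and 1098 in control replicates 1 and 2, so control replicate 1 was the high library, the reverse of its place for the 6 mitochondrial genes. Among core subunits of the peripheral arm, all 4 tested had a negative log2 fold change. NDUFS7, which holds an iron-sulfur cluster close to the ubiquinone site, had -0.66 (SE 0.27), and NDUFV1, the subunit that binds NADH, had -0.44 (SE 0.51). NDUFS7 had 132 and 128 counts with BHB, against 228 and 199 in controls. Of the 30 accessory subunits 19 were tested, with a median of -0.29. The largest differences among those with at least 5 CPM were -1.20 (SE 0.90) for NDUFA10, -0.93 (SE 0.84) for NDUFA5 and -0.72 (SE 0.68) for NDUFV3, each with control replicate 1 above the other 3 libraries.

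Complex I assembly factors gave a median log2 fold change of 0.08 over 10 tested of 19, with 5 of the 10 higher and none called. ECSIT had -0.90 (SE 0.74), NDUFAF2 0.26 (SE 0.33) and NDUFAF7, an arginine methyltransferase, 0.26 (SE 0.32). Genes of mitochondrial transcription and DNA maintenance had a median of -0.09 over 10 tested of 17, with 4 higher and none called. TFAM, which packages mitochondrial DNA and starts its transcription, had 9 and 12 counts with BHB, against 39 and 0 in controls (log2 fold change -0.63, SE 1.25). MTERF4, a regulator of the mitochondrial ribosome, had 0.43 (SE 0.29), and POLRMT, the mitochondrial RNA polymerase, -0.42 (SE 0.53). Genes of mitochondrial RNA processing and decay had a median of -0.05 over 9 tested of 20 found, with 4 higher and none called. LRPPRC, which stabilises mitochondrial messengers, had 10 and 23 counts with BHB, against 71 and 6 in controls (-0.98, SE 0.91). HSD17B10, a subunit of mitochondrial RNase P, had 0.54 (SE 0.77), and PTCD3, a protein of the mitochondrial ribosome, 0.53 (SE 0.79). The 95% interval of each gene named in these 3 lists spanned 0, so a difference in either direction was not detectable.

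The features most like the 6 genes over the 4 libraries were found by Euclidean distance between log2 CPM values, each centred on its own mean, and the mean pattern of the 6. That pattern was 0.26 and 0.65 in BHB replicates 1 and 2 and -0.77 and -0.14 in control replicates 1 and 2. Of 9289 other features, the nearest were RP11-342M1.3, BBIP1, AGAP2, CTD-2207P18.1 and ANKRD20A10P, at distances of 0.114 to 0.142, against a median of 1.26 over all features. BBIP1, a subunit of the BBSome, had 135 and 179 CPM with BHB, against 72.1 and 99.4 in controls, and AGAP2, a GTPase-activating protein gene, had 50.7 and 63.4 CPM, against 25.2 and 41.3. Off the mitochondrial genome with at least 20 CPM the nearest 5 were the same, with SLC7A11-AS1 in place of CTD-2207P18.1. Among the 6 genes themselves distances ran from 0.226 for MT-ND5 to 0.542 for MT-ND1. The pattern is their own mean, which lowers these distances, yet each of the 6 lay farther from it than the 5 nearest features. The nearest mitochondrial protein gene outside the 6 was MT-CO3, at 0.481 and rank 290, and MT-CO1 was at rank 5572. With 4 libraries, likeness of this kind is a description of these libraries.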

How the data were processed

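The authors deposited 1 table of raw counts per feature with the exon length of each, without normalization. The submitters' processing notes name the aligner HISAT2 2.2.1, the counter featureCounts 2.0.3, the builds GRCh38 and hg38, and also limma and edgeR. Per the labels' protocols, RNA was isolated with RNeasy Plus columns and libraries were made from total RNA with a stranded BGI kit. None of these sources gives the annotation release, the strand setting or the handling of reads in several genes or places. Every count column was mapped to a sample by its name.

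The counts were fitted with edgeR 4.0.16 in R 4.3.3 (filterByExpr with default settings, TMM, robust quasi-likelihood F-test, Benjamini-Hochberg adjusted p under 0.05) over 9295 features. The standard error came from the F statistic. CPM are counts scaled to 1000000 of the TMM-adjusted library size unless stated, and CPM per kb divides them by the exon length. DESeq2 1.42.0 and limma-voom (limma 3.58.1) were run beside it. The fit was tested on simulated data with known changes, in which 8655 features were fitted. It recovered 0% of 67 features set to 1.5-fold, 2.99% of 67 set to 2-fold and 49.2% of 65 set to 4-fold. The fitted sign was that of the set change in 83.6%, 97.0% and 100% of them. The changed features were drawn only from those above a minimum mean count. Simulated features varied independently, without the difference in scaling factor seen between the control libraries. Recovery in the data themselves may therefore differ. Nuclear copies were aligned with blastn 2.17.0. Sequences and positions are from GENCODE release 29.

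The members and gene lists were chosen with earlier results of these data known. From each list, up to 3 genes were named, those of largest absolute log2 fold change among genes averaging 5 CPM or more, whatever the test gave, along with the 5 features nearest in pattern (pseudocount 0.5 CPM). Of the genes this rule names, 1 is not reported here. FASTKD4, a synonym of TBRG4, was not found under that name. KRT8, KLK3, MT-TS1 and the examples MT-CO1 and MT-CO3 were named after their values were seen.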

Additional observations from a re-analysis of the deposited data

How the results depend on the processing

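Over the whole table, 0 features were called in either direction with each of the 3 other scalings, with both other filters, in DESeq2 and limma-voom, with a replicate block and at an adjusted p under 0.01. An unadjusted p under 0.05 was reached by 210 features in edgeR, 138 in DESeq2 and 248 in limma-voom. With each library left out in turn, 0 to 1035 features were called higher and 0 to 791 lower. The same fits gave log2 fold changes of 0.13 to 0.86 for MT-ND1, 0.33 to 0.92 for MT-ND2 and 0.66 to 1.86 for MT-ND3. They gave 0.53 to 1.42 for MT-ND4L, 0.90 to 1.29 for MT-ND4 and 0.65 to 1.55 for MT-ND5. The median of the 6 was 0.59 to 1.35, and the ratio of summed CPM per kb was 1.59 to 2.52. In 5 to 6 genes the BHB libraries left lay above the controls left. Fewer libraries meet that order more readily, and its share over all features was not computed here. Scaling each library to its mitochondrial counts outside the 6 genes moved the median of all features to -0.53, that of the 6 genes to 0.41, and MT-ND1 to -0.037. As a share of mitochondrial counts 1 of the 6 genes kept the groups apart, and with CPM of total counts 6 did. For these measures too, the share of all features with that order was not computed. Under the other alternatives each gene kept its direction and none passed, the lowest adjusted p being 0.32, for MT-ND4 in DESeq2. With the replicate number as a block the log2 fold changes were 0.49 for MT-ND1 and 1.24 for MT-ND3 at the ends of the range, and none was called. Same-numbered libraries correlated at -0.02 in their deviations from the group means. With 2 libraries per group the deviations mirror each other, so both pairs give the same value. It cannot tell whether same-numbered libraries were paired. The cause of these shifts was not tested. MT-ND4L had the fewest counts of the 6, at 98 to 207, while 3641 to 9626 counts lay behind MT-ND5. Their standard errors were nonetheless close, at 0.330 and 0.326, and that of MT-ND3 was wider, at 0.377.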

Other observations

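Other RNAs of the mitochondrial genome gave low or uneven counts around the 6 genes. Of 14 heavy-strand transfer RNA genes, 9 had 0 counts in all libraries and none was tested, while the 8 light-strand transfer RNA genes had means of 1.5 to 4390.5 counts. MT-TS1, a light-strand transfer RNA gene, had 2170 and 2652 CPM with BHB, against 950 and 2094 CPM in controls, so that control replicate 1 was the low library, as for MT-ND5. The ribosomal RNA gene MT-RNR2 had 989 and 1986 counts with BHB, against 1409 and 250 in controls, where control replicate 1 was the higher control. Neither passed the edgeR test, at log2 fold changes of 0.66 (SE 0.37) for MT-TS1 and 1.06 (SE 0.59) for MT-RNR2.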
